A study of Rattus norvegicus with 4 samples.

Results

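Neonatal rat cardiomyocytes that had received a mimic of hsa-miR-106b-5p were compared with cardiomyocytes that had received a mimic of cel-miR-67, a worm miRNA used as control, and every gene with more than 1.0 RPKM in both libraries was described by the log2 ratio of its values. These genes numbered 11296 of the 15731 genes in the deposited values. RPKM divides the reads of a gene by its length and by the size of the library. The cells were ventricular cardiomyocytes of wild-type Wistar rats at postnatal day 1, isolated after the atria had been cut away and after pre-plating to remove other cell types, and RNA was taken 72 h after transfection with Lipofectamine RNAiMAX. The labels give the mimic dose as 25 nM in one protocol and 25 mM in another. The same series holds 1 library each of cells given hsa-miR-93-5p and hsa-miR-25-3p, which share the cel-miR-67 library as their control. Each mimic gave 1 library, so every difference compares libraries and have no replicate check, and no test of a condition could be made.

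The miR-106b and cel-miR-67 libraries held 18797234 and 15175185 reads on listed genes, recovered from the steps in which RPKM values rise, and the median tested gene had 604 and 459 reads. The range given after a log2 ratio is a 95% Clopper-Pearson interval on those reads and covers counting error only. A gene was called higher or lower when its RPKM differed by more than 1.3-fold. All 9 cardiomyocyte markers that were found were above 1.0 RPKM in both libraries. Among them were the thick filament gene Myh6 and the thin filament gene Tnnt2, the latter at 2356 against 2433 RPKM. Of these 9 markers, 3 were called lower and 1 higher, against 12.7% and 11.9% of all genes. The 9 markers summed to 11117 RPKM with miR-106b and 13446 RPKM with cel-miR-67. The endothelial markers summed to 9.29 and 11.8 RPKM over 9 genes, with Cldn5 listed at 0 in both libraries, and the macrophage and leukocyte markers summed to 23.1 and 25.0 RPKM over 10 genes. Fibroblast markers were present in both libraries and are given with the matrix genes. In RNA of a whole culture, fewer cells of a type and less RNA per cell cannot be told apart.

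An animal miRNA guides an Argonaute protein to mRNAs that pair with its seed, bases 2 to 8 from its 5′ end, and such mRNAs are mostly destabilised or translated less. miR-106b, miR-93 and miR-25 are cut from 1 cluster in an intron of Mcm7, a gene of the replicative helicase. miR-106b and miR-93 belong to the miR-17 family, which is known for repression of Cdkn1a, of TGF-beta receptor type II and of several regulators of autophagy and lipid transport. In the RefSeq table of rat miRNAs (build GRCr8), 5 mature miRNAs carried the seed of miR-106b, and miR-25 carried another. They are shown because miRNAs of equal seed share targets, and the seed is in capitals.
rno-miR-106b-5p: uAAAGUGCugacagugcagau
rno-miR-93-5p: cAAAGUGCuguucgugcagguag
rno-miR-17-5p: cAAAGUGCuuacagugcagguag
rno-miR-20a-5p: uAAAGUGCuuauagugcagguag
rno-miR-20b-5p: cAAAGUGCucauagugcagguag
rno-miR-25-3p: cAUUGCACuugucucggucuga
The rat sequence of miR-106b lies at chr12:22157103-22157123 on the minus strand, inside Mcm7. Counted from the 5′ end without gaps, miR-106b and miR-93 had the same base at 16 of 21 positions, miR-106b and miR-17 at 18 of 21, and miR-106b and miR-25 at 5 of 21. The heptamer in an mRNA that pairs with the miR-106b seed is GCACUUU. The host gene Mcm7 itself stood at 23.4 RPKM with miR-106b and 23.2 RPKM with cel-miR-67.

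Most genes kept a similar level. Of the 11296 genes, 1339 (11.9%) were called higher and 1437 (12.7%) lower with miR-106b, and 8520 (75.4%) stayed within 1.3-fold. The counting interval of the log2 ratio excluded 0 for 1214 of the genes called higher and 1352 of those called lower. The median log2 ratio was -0.0033, the middle 90% of genes lay between -0.62 and 0.60, and 139 genes were higher and 150 lower by more than 2-fold. Of the genes next to the RPKM cutoff, RGD1560883, Trpm4 and Bicd1 lay just inside it with log2 ratios of 0.22, -0.25 and 0.19, and Dock10, Ahcyl2 and Nhlrc1 just outside it with -0.19, 0.43 and 0.41.

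**Figure D1:**
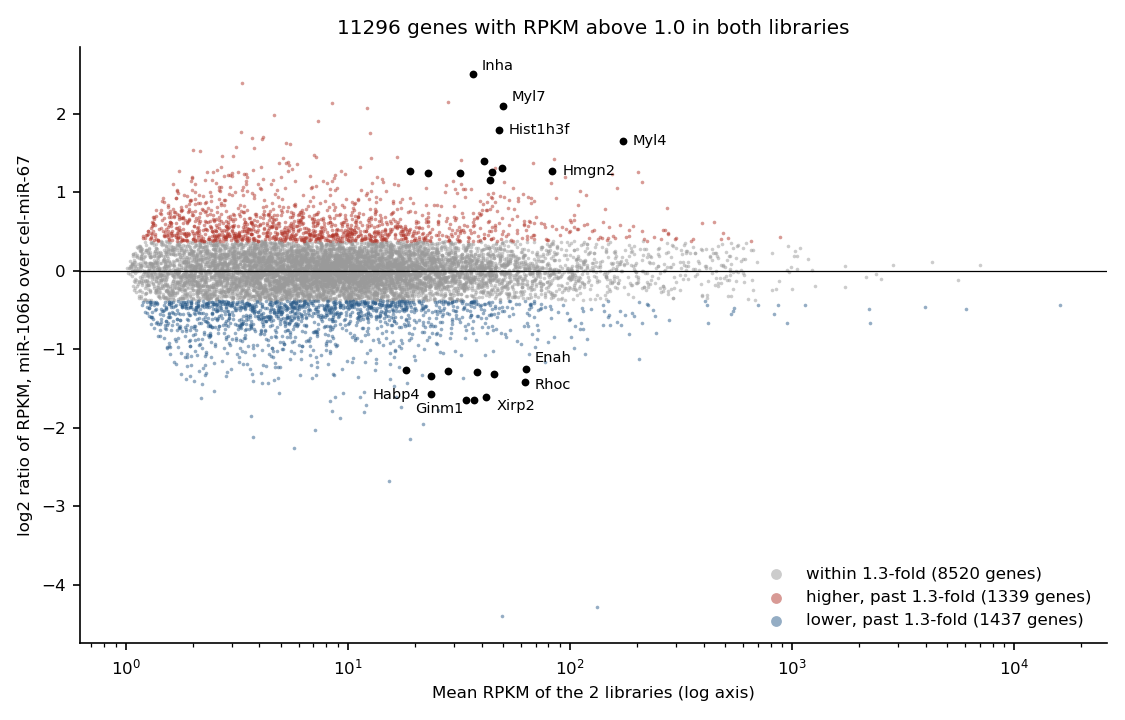
Each point is a gene, placed by its mean RPKM in the miR-106b and cel-miR-67 libraries (horizontal, log axis) and by the log2 ratio of miR-106b over cel-miR-67 (vertical). Black points are the 12 largest rises and 11 of the 12 largest falls among genes above 10 RPKM in both libraries and outside the cell cycle lists, and the cloud is centred near 0 with 1339 genes above and 1437 genes below the 1.3-fold cutoff.

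Among genes above 10 RPKM in both libraries and outside the cell cycle lists, the inhibin alpha gene Inha had the highest ratio, with 62.4 against 11.0 RPKM. Inha stood at 47.3 RPKM with miR-93 and 63.8 RPKM with miR-25, above the shared control with each mimic. The light chains Myl7 and Myl4, which are typical of atrial muscle, were also among the 12 largest rises. Of 6 tested atrial markers 2 were higher and 1 was lower, the latter being Sln, and the natriuretic peptide gene Nppa stood at 1607 against 1860.4 RPKM. Over all genes 11.9% were higher and 12.7% lower. Hist1h3f, Hist1h2bk, Hist1h2ak and Hist2h2ac, which encode core histones, made up 4 of the 12 largest rises. The nucleosome-binding gene Hmgn2 stood at 117 against 48.6 RPKM (log2 ratio 1.27, interval 1.14 to 1.40).

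The remaining largest rises were genes of muscle metabolism, signalling and lipid transport. Pgam2, the muscle isoform of the glycolytic enzyme phosphoglycerate mutase, stood at 26.9 against 11.1 RPKM (log2 ratio 1.27). Sh3kbp1, an adaptor in receptor endocytosis, stood at 70.4 against 28.5 RPKM (1.31, 1.24 to 1.37). Rgs2, which restrains signalling through Gq, stood at 63.2 against 26.3 RPKM (1.26, 1.12 to 1.41). Apoe, a lipid carrier, stood at 32.4 against 13.7 RPKM (1.25, 1.10 to 1.40). In the other mimic libraries, Rgs2 stood at 59.0 RPKM with miR-93 and 51.7 RPKM with miR-25, both above the control, whereas Pgam2 stood at 35.9 RPKM with miR-93 and at 4.51 RPKM with miR-25, on either side of the control.

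The 12 largest falls included genes of the sarcomere, of the cell surface and of the actin skeleton. Xirp2, an actin-binding protein of the muscle cell junction, stood at 20.6 against 63.0 RPKM (log2 ratio -1.61, interval -1.65 to -1.57), and Myom2, a protein of the M band, at 13.4 against 34.0 RPKM (-1.34, -1.42 to -1.26). The lipoprotein receptor gene Vldlr stood at 16.4 against 51.3 RPKM (-1.64, -1.73 to -1.56) and the adiponectin receptor gene Adipor1 at 26.0 against 65.0 RPKM (-1.32, -1.41 to -1.23). Both receptors were lower by more than 2-fold.

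Itga9, an integrin subunit, stood at 16.4 against 39.8 RPKM. Enah, which promotes growth of actin filaments, stood at 37.7 against 89.3 RPKM, and the small GTPase gene Rhoc at 33.9 against 90.9 RPKM. Hspb6, a small heat shock protein of muscle, stood at 22.1 against 54.3 RPKM. Ginm1 stood at 17.8 against 55.8 RPKM, Habp4 at 11.9 against 35.5 RPKM and Yipf7 at 10.7 against 25.7 RPKM. In the libraries of miR-93 and miR-25, in this order, Xirp2 stood at 2.82 and 48.7 RPKM and Myom2 at 23.8 and 2.94 RPKM. Xirp2 thus had its lowest level with miR-93 and Myom2 with miR-25.

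**Figure D2:**
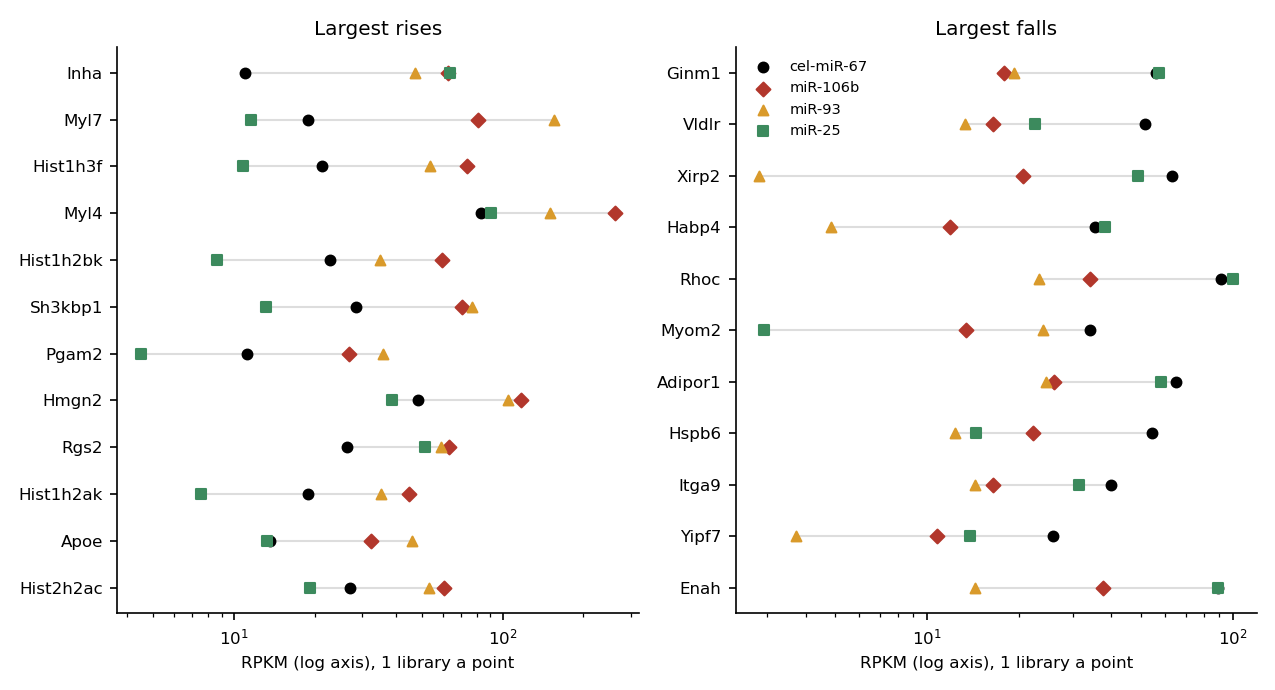
RPKM (log axis) of the 12 largest rises (left) and 11 of the 12 largest falls (right) of miR-106b over cel-miR-67, with 1 point for each of the 4 libraries. Genes were chosen on the red and black points, and the miR-93 and miR-25 points show levels that the choice did not use, such as Myl7 at 155 RPKM with miR-93 and 11.6 RPKM with miR-25.

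Genes named in the literature as targets of the miR-17 family were lower more often than higher. Of 37 such genes tested, 19 were called lower and 2 higher, against 12.7% and 11.9% of all genes, with a median log2 ratio of -0.41. The list was written from general knowledge of the family, and whether the rat mRNAs hold the heptamer was not examined here. Limk1 and Dusp2 were at or below 1.0 RPKM in at least 1 library and were not tested.

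The lower targets spanned several processes. Fyco1, which carries autophagosomes along microtubules, stood at 5.29 against 18.4 RPKM (log2 ratio -1.80, interval -1.89 to -1.71), and Ulk1, the kinase that starts autophagy, at 1.15 against 1.86 RPKM (-0.69). Abca1, the cholesterol exporter, stood at 4.84 against 14.2 RPKM (-1.56, -1.65 to -1.47). Mfn2, which fuses mitochondria, stood at 10.2 against 20.9 RPKM (-1.04, -1.18 to -0.90). The kinase gene Jak1 stood at 30.9 against 53.6 RPKM (-0.79), the repressor gene Zbtb4 at 2.06 against 5.45 RPKM (-1.40) and the receptor gene Tgfbr2 at 8.36 against 16.8 RPKM (-1.01).

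Other literature targets stayed within 1.3-fold or were higher. Cdkn1a, the inhibitor p21, stood at 9.90 against 9.61 RPKM, and its interval of -0.11 to 0.20 included 0. The interval also included 0 for the ubiquitin ligase gene Itch (-0.094) and for Rb1 (0.078). Bcl2l11, which encodes the pro-apoptotic protein Bim and is a known target, was called higher, with 4.22 against 1.83 RPKM (log2 ratio 1.20).

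With miR-93, which has the same seed, 16 of 37 targets were lower and 3 higher, against 15.6% and 15.1% of all genes tested there, with a median log2 ratio of -0.33. With miR-25, which has another seed, 10 of 38 were lower and 13 higher, against 22.6% and 19.3% of all genes, with a median of 0.19. The 3 comparisons share the control library. Rhoc stood at 33.9 RPKM with miR-106b, 23.2 RPKM with miR-93 and 100.1 RPKM with miR-25 against 90.9 RPKM in the control, and Mfn2 at log2 ratios of -1.04, -0.72 and -0.12 in the same order.

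**Figure D3:**
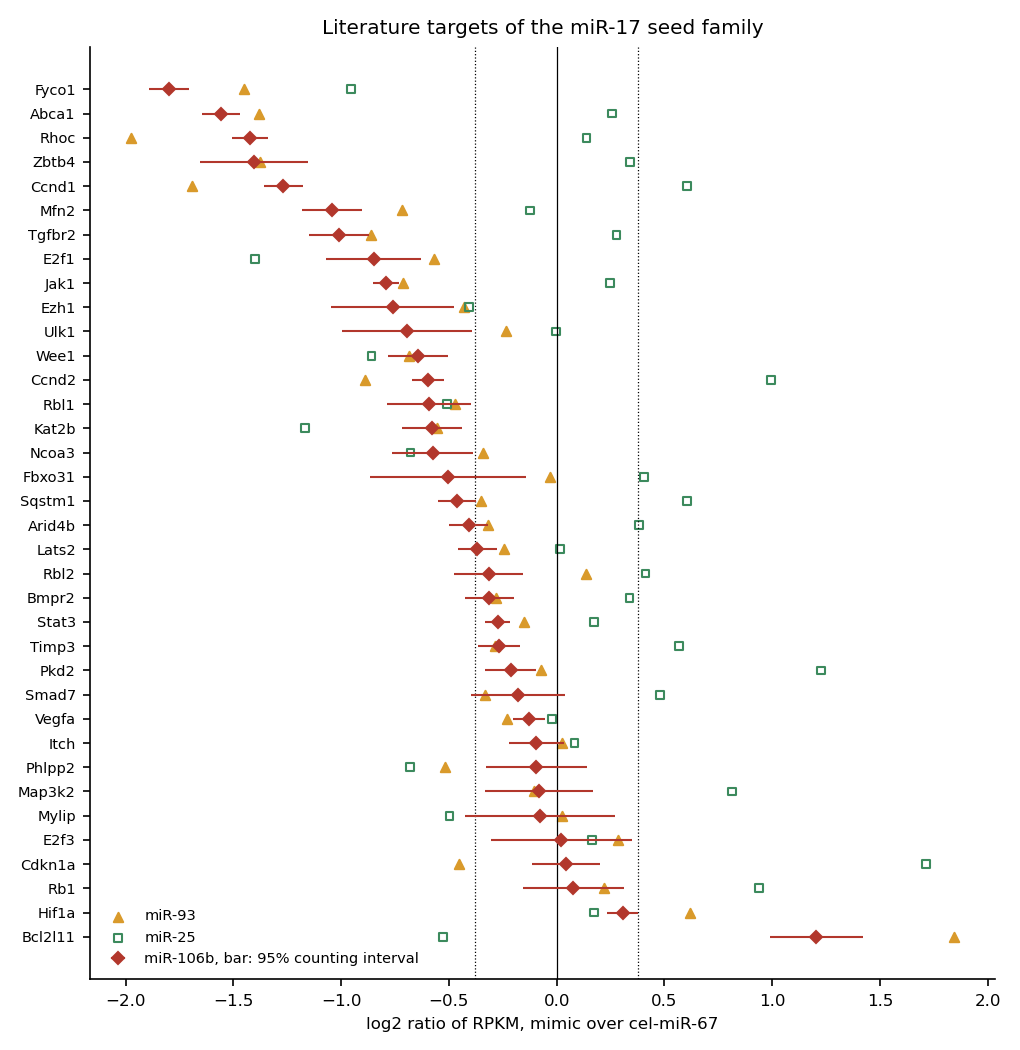
Log2 ratio of RPKM over cel-miR-67 for 36 of the 37 tested literature targets of the miR-17 seed family, with 1 row for each gene. Red diamonds are miR-106b with its 95% counting interval, triangles miR-93 and open squares miR-25, and dotted lines mark 1.3-fold, to the left of which 19 red diamonds lie.

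Genes of the extracellular matrix had more members lower than higher in each of 3 lists with miR-106b, and also with miR-93 and miR-25. In the heart, fibroblasts secrete most of the collagen, and cardiomyocytes contribute to their own basement membrane. Of 22 tested collagen genes, 9 were lower and 3 higher, against 12.7% and 11.9% of all genes. The collagen median log2 ratio was -0.33, against -0.0033 for all tested genes. Col15a1, a collagen of the basement membrane zone, stood at 9.49 against 21.6 RPKM (log2 ratio -1.19, interval -1.29 to -1.08). Col5a2, which regulates fibril thickness, stood at 116 against 188 RPKM (-0.70, -0.73 to -0.67), and the microfibrillar Col6a1 and Col6a2 had log2 ratios of -0.56 and -0.58. The fibrillar genes Col1a1 and Col1a2 stayed within 1.3-fold, at 0.082 and -0.22. Col16a1, Col18a1 and Col11a1 were the 3 called higher, with log2 ratios of 0.84, 0.64 and 0.63.

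Of 38 tested matrix glycoproteins and proteoglycans, 18 were lower and 2 higher, against 12.7% and 11.9% of all genes. The median of the list was -0.37. The matricellular gene Postn, a marker of activated fibroblasts, stood at 47.8 against 107 RPKM (-1.16, -1.21 to -1.11), and the collagen-binding proteoglycan genes Dcn and Lum at 6.28 against 16.0 and 2.74 against 5.52 RPKM. Genes of elastic fibres were also among the lower ones, with log2 ratios of -1.36 for Mfap4, -1.07 for Fbln5, -0.56 for Eln and -0.41 for Fbn1. So were laminin chains of the basement membrane, with Lamc1 at 86.3 against 137 RPKM (-0.67), Lama2 at -0.52 and Lama4 at -0.42 on the log2 scale. Agrn and Mfap2 were the 2 called higher (0.65 and 0.75), and fibronectin, encoded by Fn1, had a log2 ratio of 0.027.

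Enzymes that remodel the matrix had no member called higher with miR-106b, against 11.9% of all genes. Of 31 tested proteases and their inhibitors, 13 were lower, against 12.7% of all genes, with a median of -0.30. Adamts15 and Adamts12, which cleave proteoglycans and related matrix proteins, had log2 ratios of -1.19 and -0.89. Mmp2 and Timp1 to Timp3 stayed within 1.3-fold, with log2 ratios of -0.21, -0.26, -0.30 and -0.27.

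Relative to the median of the class of gene length each belongs to, 9 of the 22 collagens, 16 of the 38 glycoproteins and proteoglycans and 12 of the 31 proteases and inhibitors were lower by more than 1.3-fold, with the tested genes split by length into 4 classes of equal size. The other mimics are given without this adjustment. With miR-93, 11 of 22 collagens (median -0.36), 17 of 38 glycoproteins and proteoglycans (-0.35) and 10 of 30 proteases and inhibitors (-0.16) were lower. Of their members 3, 5 and 1 were higher, and of all genes 15.6% were lower and 15.1% higher. With miR-25, 16 of 22, 17 of 38 and 13 of 30 were lower (medians -0.78, -0.24 and -0.16), and 2, 5 and 5 higher. Of all genes there, 22.6% were lower and 19.3% higher.

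Fibroblast markers, some of which are matrix genes themselves, were also at lower levels. The 10 fibroblast markers summed to 664 RPKM with miR-106b and 852 RPKM with cel-miR-67. Of the 10, 5 were lower and 0 higher, against 12.7% and 11.9% of all genes. Besides Dcn, Lum and Postn these were the receptor gene Pdgfra (-0.71) and the transcription factor gene Tcf21 (-0.39), while Col1a1, Col1a2, Col3a1, Thy1 and Ddr2 stayed within 1.3-fold. With miR-93, 5 of the 10 fibroblast markers were lower and 0 higher, and with miR-25, 7 were lower and 1 higher. Of 9 tested markers of smooth muscle cells and pericytes, 3 were lower and 0 higher with miR-106b, against 12.7% and 11.9% of all genes. The 10 such markers found summed to 744 and 984 RPKM, of which Des, also a cardiomyocyte gene, gave most. The epicardial markers summed to 37.1 and 33.7 RPKM. The part of these cell types in the matrix values was not tested.

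**Figure D4:**
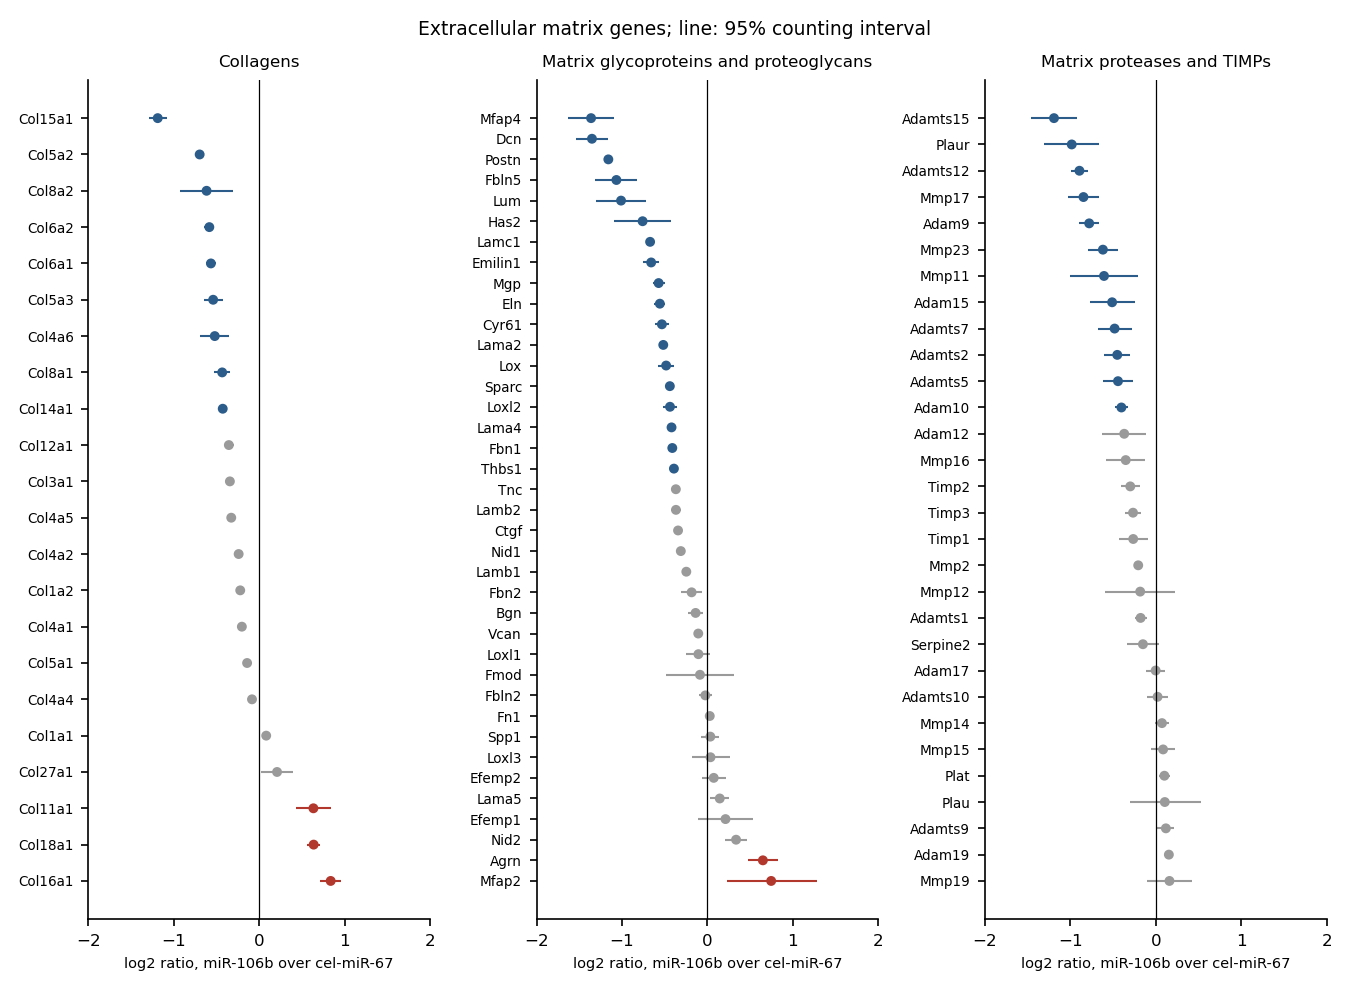
Log2 ratio of miR-106b over cel-miR-67 for 22 tested collagens (left), 38 matrix glycoproteins or proteoglycans (middle) and 30 matrix proteases or inhibitors (right). Lines are 95% counting intervals, blue marks genes lower and red genes higher by more than 1.3-fold, and 9, 18 and 12 genes in the panels from left to right are blue.

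Integrins, the receptors that tie cells to the matrix, had more genes lower than higher. Of 22 genes of the integrin list, 7 were lower and 1 higher (median -0.18), against 12.7% and 11.9% of all genes. Itgb1, the beta chain shared by many of the heterodimers, stood at 431 against 632 RPKM (-0.55, -0.57 to -0.53). Its partner chains Itga7, the laminin receptor of muscle, and Itga5, the fibronectin receptor, stood at 12.8 against 27.2 and 33.0 against 46.3 RPKM (-1.09 and -0.49), while Itga3 was the member called higher (0.62).

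In the TGF-beta pathway, which drives matrix production in fibroblasts, 7 of 24 genes were lower and 1 higher (median -0.19). These were 29.2% and 4.2%, against 12.7% and 11.9% of all genes. The ligand gene Tgfb2 stood at 35.7 against 61.8 RPKM (-0.79, -0.85 to -0.74). Of the genes that TGF-beta is known to induce, Tgfbi had a log2 ratio of -1.25 and Pmepa1 stood at 3.41 against 6.81 RPKM, and Ltbp2, a latent TGF-beta binding protein, had a log2 ratio of -1.10. The repressor Tgif2 was the member called higher (0.39).

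Several growth factor ligands were lower in a list whose median lay near 0. In the ErbB and FGF list 8 of 24 genes were lower and 2 higher, against 12.7% and 11.9% of all genes. The median was 0.071. It was -0.44 among the genes whose counting interval excluded 0, a filter on the same ratios that removes genes near 0. The lower genes were 7 ligands and the receptor gene Fgfr2. Fgf1 stood at 5.62 against 17.2 RPKM (-1.61) and Fgf16, a cardiac FGF, at 1.10 against 2.79 RPKM (-1.34). The EGF family ligands Hbegf, Areg and Ereg had log2 ratios of -0.92, -0.81 and -0.97, of which Hbegf alone was above 10 RPKM in both libraries. Nrg1, the neuregulin ligand, was higher at 2.34 against 1.65 RPKM (0.50).

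In the Wnt list, 5 of 18 genes were lower and 1 higher, against 12.7% and 11.9% of all genes. The receptor genes Fzd6, Fzd7 and Fzd2 were among the lower ones (-1.03, -0.68 and -0.63), and the secreted inhibitor gene Wif1 was the higher one (0.84). In the insulin-like growth factor list, 7 of 26 genes were higher and 5 lower, against 11.9% and 12.7% of all genes. Igf2 and the binding protein genes Igfbp3, Igfbp4 and Igfbp5 were higher, with log2 ratios of 0.96, 0.64, 0.86 and 1.15 at levels below 10 RPKM in both libraries. Igf1, Igfbp6 and the PI3K subunit genes Pik3ca and Pik3r1 were lower (-0.57, -0.68, -0.51 and -0.84), as was Stc1, which had the lowest ratio in the list (9.96 against 26.9 RPKM, log2 ratio -1.43).

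Genes of the contractile apparatus were lower in a part of the list. Of 33 tested genes of the sarcomere and Z-disc, 12 were lower and 4 higher, with a median of -0.21. These were 36.4% and 12.1%, against 12.7% and 11.9% of all genes. The cardiac actin gene Actc1 stood at 5034 against 7073 RPKM (-0.49, -0.50 to -0.48), the calcium-binding troponin gene Tnnc1 at 1847 against 2579.7 RPKM (-0.48) and the stretch-responsive gene Ankrd1 at 1736 against 2753 RPKM (-0.67). Tcap, which caps titin at the Z-disc, had a log2 ratio of -1.03, and Pdlim5, a Z-disc adaptor, of -0.80. Among the myosin heavy chains Myh6, the alpha isoform, stood at 968 against 1307 RPKM (-0.43) and Myh7, the beta isoform, at 1233 against 1226 RPKM (0.0084).

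The genes called higher in the list were Tnni3, the adult cardiac inhibitory troponin, Fhl2, a LIM domain protein, and the light chains Myl4 and Myl7. Tnni3 stood at 543 RPKM with miR-106b, 495 RPKM with miR-93 and 15.9 RPKM with miR-25, against 351 RPKM in the control. Actc1 stood at 2733 RPKM with miR-93 and 4953 RPKM with miR-25, below the control with each mimic. In the whole list 18 of 33 genes were lower and 4 higher with miR-93 (median -0.51), against 15.6% and 15.1% of all genes. With miR-25, 26 of 33 were lower and 0 higher (median -0.66), against 22.6% and 19.3% of all genes.

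Genes of calcium handling and ion channels lay on both sides. Hrc, a calcium-binding protein of the sarcoplasmic reticulum, stood at 13.9 against 3.16 RPKM (2.14, 1.91 to 2.37) and the T-type channel gene Cacna1h at 6.26 against 1.94 RPKM (1.69, 1.52 to 1.86). Scn4b, a beta subunit of the sodium channel, stood at 7.43 against 1.87 RPKM (1.99, 1.76 to 2.23). By contrast the calcium release channel gene Ryr2 stood at 54.7 against 88.0 RPKM (-0.69) and the calcium store protein gene Casq2 at 445 against 636 RPKM (-0.51). With miR-25 Hrc, Cacna1h and Scn4b were at 0.750, 0.545 and 0.0773 RPKM, below the control, and with miR-93 at 15.4, 7.07 and 12.4 RPKM, above it.

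Genes of lipid storage and breakdown had the lowest median of the 47 process lists. Of 13 tested genes of lipid droplets and lipolysis, 7 were lower and 1 higher (median -0.42), against 12.7% and 11.9% of all genes. Pnpla2, the first enzyme of triglyceride breakdown, its activator Abhd5 and its inhibitor G0s2 had log2 ratios of -0.95, -0.78 and -0.84. Lpl, which frees fatty acids from lipoproteins, stood at 26.7 against 42.7 RPKM (-0.68), and Fitm1, which promotes droplet formation in muscle, was the member called higher, at 7.94 against 3.59 RPKM (1.14).

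Genes of fatty acid uptake and oxidation lay on both sides of the control. The fatty acid transporter gene Cd36 and the dehydrogenase genes Acadvl and Acadl stood at 23.1 against 35.8, 33.8 against 55.2 and 23.2 against 33.9 RPKM, with log2 ratios of -0.63, -0.71 and -0.55, and the nuclear receptor gene Ppara at -0.53 on the log2 scale. Fabp3, the fatty acid binding protein of heart muscle, was higher, at 571 against 407 RPKM (0.49). In the whole list of fatty acid oxidation and the TCA cycle, 6 of 43 genes were lower and 2 higher, with a median of -0.056. The lower genes were 13.95% of the list, near the 12.7% of all genes, and the higher ones 4.65%, against 11.9%. The list as a whole thus had a share of lower genes close to that of all genes.

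The lysosome, which degrades cargo delivered by autophagy, had 10 of 43 genes lower and 2 higher (median -0.19). These were 23.3% and 4.7%, against 12.7% and 11.9% of all genes. Gaa, the enzyme that degrades glycogen in the lysosome, stood at 10.7 against 21.8 RPKM (-1.02, -1.13 to -0.91), and Hexa, a chain of hexosaminidase, had a log2 ratio of -0.52. In the autophagy list 5 of 32 genes were lower and 2 higher, the former being 15.6% against 12.7% of all genes. Besides Fyco1 and Ulk1 the lower genes were Atg16l1 (-0.99), Sqstm1 (-0.46) and Atg13 (-0.41), and the higher ones Atg12 (0.51) and Atg4c (0.47).

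Histone genes were the symbol family with the largest share of genes called higher. Of 23 genes whose symbol began with Hist, 21 were higher and 0 lower, with log2 ratios from 0.25 to 1.79 and a median of 0.90. The family includes linker histones, with Hist1h1c at 331 against 269.9 RPKM and Hist1h1a at 41.2 against 20.7 RPKM, and core histones, with Hist1h3a at 219.8 against 105 RPKM and Hist1h4m at 112 against 51.9 RPKM. Replication-dependent histone genes are transcribed in S phase, and near-identical copies can share reads, so the values of single copies are uncertain. With miR-93, Hist1h3a stood at 136.5 RPKM and Hist1h4m at 55.3 RPKM. With miR-25, Hist1h3a stood at 26.7 RPKM and Hist1h4m at 14.6 RPKM.

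All 23 histone genes lay in the shortest of the 4 classes of gene length, where 20.0% of genes were higher and 10.5% lower, against 7.51% and 13.8% in the longest class. Relative to the median of that class, 20 of the 23 were higher by more than 1.3-fold, with a median log2 difference of 0.82. The S phase list, for comparison, had 12 of 61 genes higher (19.7%) and 3 lower. The G2/M list had 83 of 118 higher (70.3%) and 3 lower, against 11.9% of all genes higher and 12.7% lower.

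Ribosomal protein genes are also short. Of 60 cytosolic ribosomal protein genes 8 were higher and 0 lower (median 0.13). The higher genes were 13.3% of the list, near the 11.9% of all genes and below the 20.0% of the shortest class, in which 55 of the 60 lay. Relative to the medians of their classes 5 were higher with a median of 0.055. Rpl34 stood at 144 against 95.1 RPKM (0.60) and Rps16 at 103 against 70.8 RPKM (0.54). Many ribosomal protein genes have processed pseudogenes, which can take reads, so their values are uncertain. Of 68 mitochondrial ribosomal protein genes 8 were higher (11.8%, against 11.9% of all genes) and 0 lower. Mrps12 had the highest ratio, at 19.7 against 4.66 RPKM (2.08).

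Among other lists with more genes higher than lower was glycolysis, with 7 of 25 genes higher and 2 lower. These were 28.0% and 8.0%, against 11.9% and 12.7% of all genes. Besides Pgam2, the muscle enolase gene Eno3 stood at 44.2 against 20.5 RPKM (1.11, 0.98 to 1.24), the glucose transporter gene Slc2a1 at 38.2 against 21.6 RPKM (0.82) and the lactate transporter gene Slc16a3 at 32.3 against 18.0 RPKM (0.84). Hk2, which traps glucose in the cell, had a log2 ratio of 0.63. Pfkp, a phosphofructokinase, stood at 119 against 178 RPKM (-0.59), so the list did not move in 1 direction.

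Of 25 tested genes of the interferon response, 9 were higher and 2 lower (median 0.16), against 11.9% and 12.7% of all genes. The antiviral genes Mx2 and Oas1a stood at 19.7 against 8.98 and 4.87 against 2.06 RPKM (1.13 and 1.24) and the regulator gene Usp18 at 17.4 against 10.6 RPKM (0.71), while Irf1 and Ifit2 were lower (-0.53 and -0.50). With miR-93 5 of 25 were higher and 6 lower, against 15.1% and 15.6% of all genes tested there. With miR-25 2 of 24 were higher and 12 lower, against 19.3% and 22.6% of all genes.

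In the list of the unfolded protein response, genes of the endoplasmic reticulum lay on both sides. The chaperone gene Canx stood at 157 against 80.2 RPKM (0.97, 0.94 to 1.01), whereas the stress genes Dnajb9 and Herpud1 stood at 17.5 against 36.2 and 24.0 against 43.6 RPKM (-1.05 and -0.86). Canx stood at 138 RPKM with miR-93 and 173 RPKM with miR-25, also above the control. Clu, a secreted chaperone counted in the complement list, stood at 128 against 279 RPKM (-1.12, -1.16 to -1.09). Of 32 antioxidant genes and Nrf2 targets 2 were higher and 5 lower (median -0.017). These were 6.25% and 15.6%, against 11.9% and 12.7% of all genes. The conjugating enzyme gene Gstp1 stood at 92.0 against 61.1 RPKM (0.59), while the extracellular enzymes Gpx3 and Sod3 had log2 ratios of -0.87 and -1.27, and Nfe2l2, the regulator Nrf2, of -0.61.

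Signalling and gene regulation held single genes with large ratios. Il1rl1, the receptor of interleukin 33, stood at 30.2 against 14.5 RPKM (1.06, 0.96 to 1.15), and the cytokine gene Csf1, which sustains macrophages, at 7.10 against 11.8 RPKM (-0.73). Of the 15 tested chemokine and cytokine genes 5 were higher and 5 lower, most of them below 10 RPKM. Over all genes 11.9% were higher and 12.7% lower. The AP-1 gene Jund stood at 20.7 against 11.3 RPKM (0.87) and Fos at 5.97 against 8.52 RPKM (-0.51), and Zfp36, which promotes decay of AU-rich mRNAs, at 3.99 against 7.01 RPKM (-0.81).

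Among chromatin and RNA regulators, the architectural gene Hmga1 stood at 63.8 against 32.8 RPKM (0.96, 0.74 to 1.18), Ptbp2, a splicing repressor, at 28.8 against 16.2 RPKM (0.83) and Prkra, a partner of Dicer and of the kinase PKR, at 21.1 against 12.3 RPKM (0.78). Hmga1 stood at 61.2 RPKM with miR-93 and 65.6 RPKM with miR-25, also above the control. Ago2, which carries the guide strand of a miRNA, was lower at 13.9 against 18.9 RPKM (-0.44, -0.55 to -0.33). Of 34 chromatin genes 3 were higher (8.8%) and 6 lower (17.6%). Of 21 genes of miRNA processing 1 was higher (4.8%) and 2 were lower (9.5%). Over all genes 11.9% were higher and 12.7% lower.

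Receptors and transport genes of the cell surface and endosomes also differed. Chrm2, the muscarinic receptor of the heart, stood at 34.8 against 58.4 RPKM (-0.75, -0.83 to -0.67). Scd2, a desaturase of fatty acids, was higher at 139 against 77.5 RPKM (0.84, 0.81 to 0.88), while Scd1 was lower at 7.09 against 11.3 RPKM (-0.68). Scd2 stood at 113 RPKM with miR-93 and 166 RPKM with miR-25, also above the control. The endosomal genes Rab5b and Stx6 had log2 ratios of -0.99 and -0.76, and Rab4a, of the recycling endosome, of 0.65. In the membrane trafficking list as a whole 5 of 54 genes were lower (9.26%) and 4 higher (7.41%), against 12.7% and 11.9% of all genes.

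Several processes held few called genes. None of 20 aminoacyl-tRNA synthetase genes and none of 10 Notch pathway genes was past 1.3-fold, and of 37 proteasome genes the deubiquitinase gene Psmd14 alone was (0.40). In ribosome biogenesis, 2 of 36 genes were lower and none higher, against 12.7% and 11.9% of all genes. Of the 47 process lists, 31 had a median below 0 and 16 above it, and 24 lay within 0.1 of 0 on the log2 scale. The lists below -0.2 numbered 7, and p53 targets were the list above 0.2 (0.28).

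**Figure D5:**
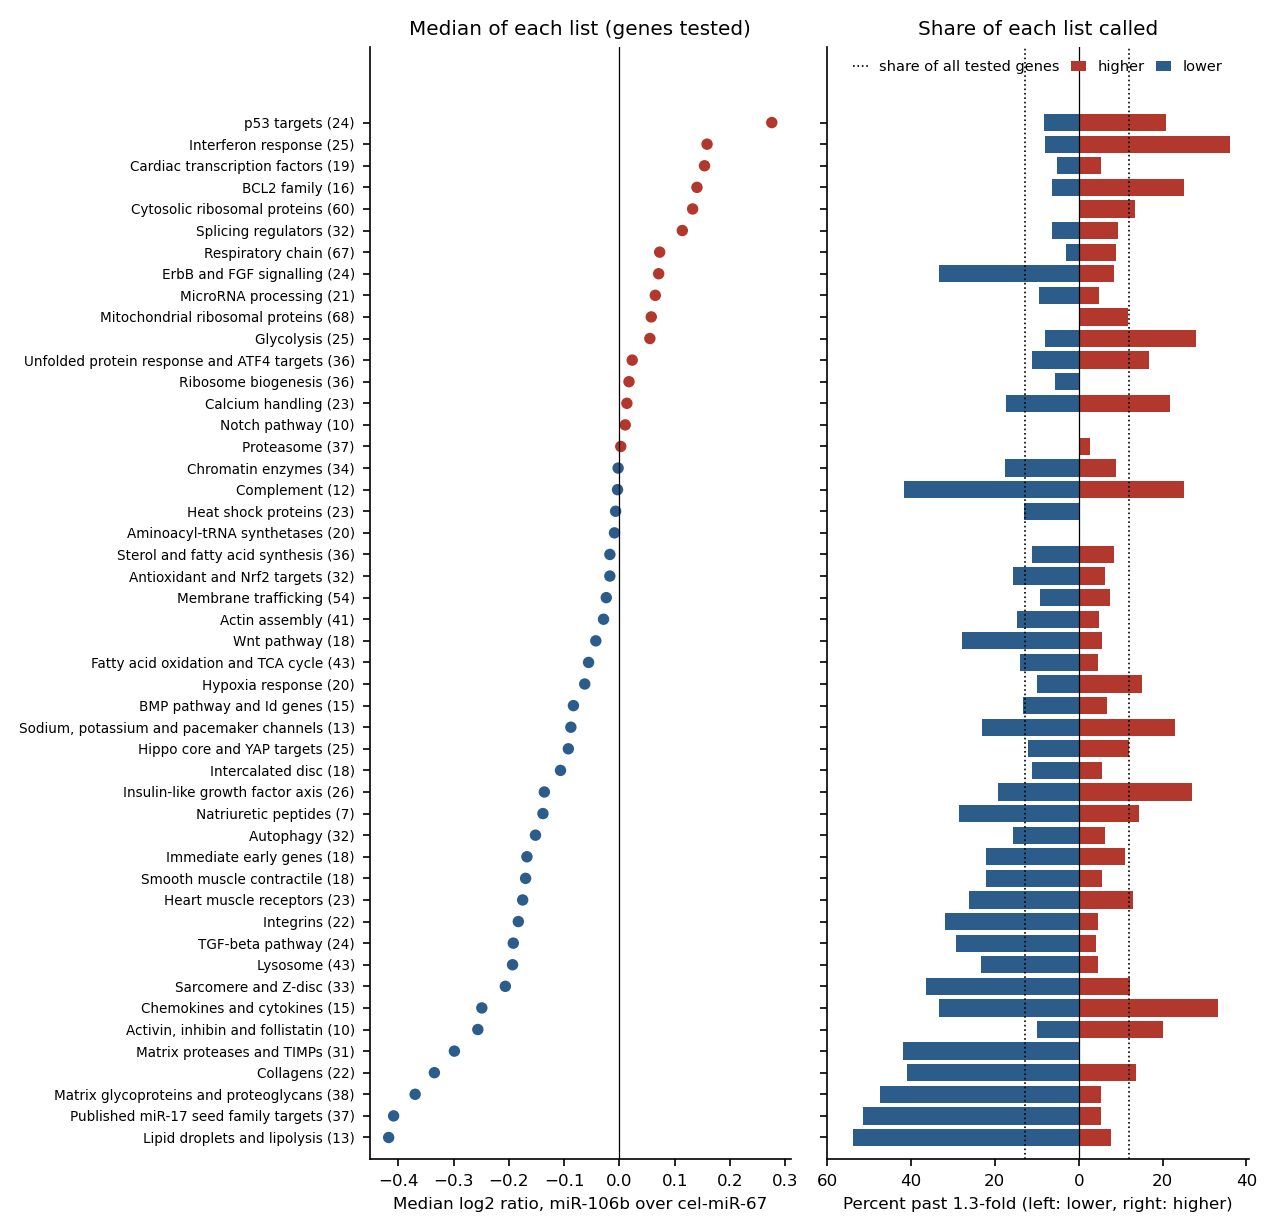
Left, the median log2 ratio of miR-106b over cel-miR-67 in each of 47 process lists and the literature targets, with the number of genes tested in brackets. Right, the percent of tested genes of each list higher (red) or lower (blue) by more than 1.3-fold, with dotted lines at the 11.9% and 12.7% of all tested genes, and the lists of lipid droplets, seed targets and matrix genes stand at the bottom.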

How the data were processed

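RNA of 4 cultures of neonatal rat cardiomyocytes, 1 for each mimic, was sequenced on an Illumina HiSeq 2000 after TruSeq preparation. The authors checked the reads with FASTQC, trimmed them with Cutadapt, aligned them with STAR 2.7 to Rnor 6.0 and deposited RPKM values computed with edgeR's rpkm function. The program that counted reads, and how it treated reads shared by genes, are not given in the sources used here. The values for the whole series were identical to those for each sample.

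A gene was tested at RPKM above 1.0 in both libraries and called past 1.3-fold, without a pseudocount. Whole reads were recovered for all 15731 genes by finding the smallest whole numbers with the ratios of the RPKM values, with a common factor restored for 654 genes, and gave 95% Clopper-Pearson intervals of the ratio, which cover counting error only. The recovery and the intervals were tested on simulated data. There, reads were recovered exactly for 96.2% of genes, and the interval held the true change for 95.7% of tested genes. The simulated reads held counting error alone, the error the interval assumes, so this checks the computation and not variation between cultures. With 1 library a side there are no replicates and no test was made.

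Lists held 1872 distinct symbols, of which 1707 were found and used, 33 were listed more than once and left out, and 132 were not analysed here. Genes named in the text are the 12 largest rises and falls above 10 RPKM outside the cell cycle lists, in each list the highest and lowest ratio and the most abundant gene, the literature targets, Mcm7, and 5 genes a direction above 1.0 RPKM in 1 library only. Some genes that these rules select are counted in the lists but not reported here by name. Other list members were named after their values were seen. The comparison, the lists and the named genes were chosen with earlier results of these data known. Alternatives were RPKM cutoffs of 2.0, 10 and none, folds of 1.5 and 2, a pseudocount of 0.1 or 1, subtraction of the median log2 ratio, TMM, genes beyond counting error and, added after seeing the data, subtraction of the median of each of 4 classes of gene length. miRNA sequences came from RefSeq's rat table (GRCr8). Values were computed in Python 3.11.15 (scipy 1.17.1, pandas 2.3.3, numpy 2.4.6) and drawn with matplotlib 3.10.9.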

Additional observations from a re-analysis of the deposited data

How the results depend on the processing

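Genes called higher and lower, 1339 and 1437, numbered 410 and 457 above 10 RPKM in both libraries, 2785 and 2935 with all genes above 0 in both, 588 and 647 at 1.5-fold, and 139 and 150 at 2-fold. Under the other alternatives both counts stayed within 1.5 times these values, with 1001 and 1095 at a pseudocount of 1. Among genes whose counting interval excluded 0, the median log2 ratio was -0.58 for the literature targets and -0.44 for the matrix proteases. That filter acts on the same ratios and removes genes near 0, so it can enlarge a median by itself. Under the other alternatives the medians of both lists and those of the collagens, matrix glycoproteins and sarcomere genes moved by less than 0.1. Among genes whose interval excluded 0, 30 of 57 list medians moved by 0.1 or more, and that of the ErbB and FGF list turned from 0.071 to -0.44. Of 60 list medians 16 changed sign under at least 1 alternative, none with a reported median above 0.175 in size. Of 215 named genes 3 changed sign, all within 0.0568 of 0, and relative to the medians of the length classes 32 moved beyond their counting interval. TMM moved all log2 ratios by 0.0029. No paired analysis was possible because each mimic has 1 library. With 1 library a side, variation between cultures is unknown and the intervals do not hold it. Seed matches in 3′UTRs were not examined, since no transcript sequence was used here.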

Other observations

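Genes above 1.0 RPKM in 1 library alone were outside the comparison, and numbered 288 with miR-106b and 247 with cel-miR-67. The most abundant with miR-106b was Tnnt1, the slow skeletal troponin T, at 13.5 against 0.228 RPKM from 465 and 6 reads, and at 2.08 RPKM with miR-93 and 0.158 RPKM with miR-25. Vil1, which encodes villin, an actin-bundling protein of epithelial microvilli, stood at 4.41 against 0.347 RPKM, and at 4.69 and 0.289 RPKM with miR-93 and miR-25. Selplg stood at 3.43 against 0.557 RPKM, Gng3 at 3.00 against 0.995 RPKM and Egfl6 at 2.92 against 0.922 RPKM. In the other direction the order was Mfap3l (0.960 against 5.29 RPKM), Fhad1 (0.488 against 3.58), the matricellular gene Thbs2 (0.829 against 3.21), Rai2 (0.524 against 3.04) and the adhesion receptor gene Adgrg1 (0.916 against 2.85). Fhad1 and Rai2 stood at 0.139 and 0.400 RPKM with miR-93.

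Genes were also grouped by the letters at the start of their symbols, which gave 93 groups with 10 or more tested genes outside the cell cycle lists and identifier names. Over all tested genes 11.9% were higher and 12.7% lower. After the histones, the groups with the largest share higher were Tspan (tetraspanins, 5 of 15 and 3 lower), Lsm (RNA-binding proteins of the spliceosome and of mRNA decay, 4 of 13 and 0 lower), Fkbp (prolyl isomerases, 4 of 13 and 1 lower) and Bcl (4 of 13 and 1 lower). Fkbp9 stood at 45.8 against 27.4 RPKM, Tspan3 at 79.5 against 51.2 RPKM and Lsm5 at 24.4 against 16.0 RPKM. The groups with the largest share lower were Adamts (8 of 12 and 0 higher), Col (9 of 23 and 3 higher), Arhgef (exchange factors that activate small GTPases, 6 of 16 and 1 higher), Fbxl (substrate adaptors of ubiquitin ligases, 4 of 12 and 1 higher) and Mtmr (phosphoinositide phosphatases, 3 of 10 and 0 higher). Arhgef39 stood at 14.9 against 24.8 RPKM, Fbxl5 at 8.57 against 13.4 RPKM, and Mtmr4 at 10.2 against 14.3 RPKM. These groups were ranked on the same values, so their shares are a description.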
